A study of Mus musculus with 74 samples.

Results

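The fragments of *mt-TR*, the mitochondrial tRNA for arginine, that began at position 24 and were 15 to 29 nt long formed a family with 1 shared 5′ end and a ladder of 3′ ends. Members were located by exact match on the mature tRNA and numbered as in C57BL/6J mtDNA, and 14 of the 500 fragments counted in mouse lung belonged to the family. The family was chosen by its read counts, since it held 2 of the 3 most counted fragments, so its abundance and the order of its members in the pooled reads are described here without a test. The 14 members held 772 of 5606 *mt-TR* reads, or 13.8% (95% Wilson interval 12.9% to 14.7%). The longest fragment counted was 42 nt, so no share given here includes full-length tRNA. The RNA had no repair of its ends or demethylation before sequencing. The paper reports that this sequencing missed fragments of the sizes seen on its northern blots. Shares are therefore of the fragments that the method detected.

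Small RNA was sequenced from lung of healthy, untreated adult wild-type and mitochondrial-nuclear exchange (MNX) mice, in which the nuclear genome of 1 strain is combined with the mtDNA of another. The first letter of each genotype names the nuclear genome and the second the mtDNA, with C for C57BL/6J, H for C3H/HeN and F for FVB/NJ. Wild types were CC, HH and FF, and MNX mice were CF, CH and HC, and each genotype was sampled in females and males. The 12 groups held 6 libraries each, except CH females and HC females with 7, for 74 libraries in all. The series' design text names liver where its title and labels name lung, and with counts for 1 tRNA the tissue could not be checked against markers. The extraction notes mention that intact RNAs were pooled, but the labels do not say whether a library was 1 animal or several, so the spread between libraries may be technical.

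Mitochondrial tRNAs are cut out of long polycistronic transcripts, receive a 3′ CCA tail and carry amino acids to the mitochondrial ribosome. Ribonucleases can cleave mature tRNAs into fragments, and those that lack both ends of the tRNA are called internal tRNA-derived fragments (i-tRFs). Cleavage inside the anticodon loop gives 5′ and 3′ fragments that part the loop, whereas the fragments described here began before that loop.

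The gene lies on the plus strand of the mitochondrial genome (GRCm38 chrM:9808-9875, ENSMUSG00000064361.1) and its annotation holds a single exon of 68 nt without intron or UTR. The mature tRNA of the C type is printed with CCA, and its capitals mark positions 24 to 52, which every member lies within.
Mature *mt-TR*, C mtDNA, 71 nt: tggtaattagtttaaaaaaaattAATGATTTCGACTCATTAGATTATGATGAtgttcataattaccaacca
Position 24 (chrM 9831) is the first base of the anticodon stem. By base pairing, positions 24 to 28 pair with 36 to 40 at 5 of 5 bases, the loop spans 29 to 35 and the anticodon TCG lies at 31 to 33. Farther 3′, positions 45 to 49 pair with 56 to 60 and form the T stem at 5 of 5 bases, around a T loop of positions 50 to 55.
The 5 members with the most reads and the longest member are printed below from 5′ to 3′ on the plus strand (GRCm38), to show that they differ only in how far they run past the anticodon stem. Capitals mark the bases 3′ of position 40, the last base of that stem.
Positions 24 to 45, 22 nt, chrM:9831-9852: aatgatttcgactcattAGATT
Positions 24 to 40, 17 nt, chrM:9831-9847: aatgatttcgactcatt
Positions 24 to 44, 21 nt, chrM:9831-9851: aatgatttcgactcattAGAT
Positions 24 to 43, 20 nt, chrM:9831-9850: aatgatttcgactcattAGA
Positions 24 to 42, 19 nt, chrM:9831-9849: aatgatttcgactcattAG
Positions 24 to 52, 29 nt, chrM:9831-9859: aatgatttcgactcattAGATTATGATGA
The 17-nt member is thus the complete anticodon stem-loop, the 19-nt to 21-nt members end in the bases between the arms, and the 22-nt member ends on the first base of the T stem. The 29-nt member ends in the T loop. All 14 members share their first 16 bases. The run of positions 11 to 21, where the C, F and H types differ in length (71, 72 and 73 nt), lies 5′ of the family, so all 14 sequences occur in every mtDNA type. The same first base is position 25 in the F tRNA and 26 in the H tRNA. All 14 sequences were found in *mt-Tr* alone among 141767 annotated mouse transcripts, and none of the 1738 mature mouse miRNAs listed by RefSeq (GRCm38.p6 table) had the same bases 2 to 8.

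Counts of *mt-TR* reads were low and uneven. Of 74 libraries 3 had no *mt-TR* reads, the median was 35 reads, and the highest were 1280 in HC male replicate 3 and 334 in the next library. HC male replicate 3 alone held 279 of the 772 family reads (36.1%), against 22.8% of all *mt-TR* reads. The main pooled values are therefore also given without it. Without that library the family held 493 of 4326 reads, or 11.4% (10.5% to 12.4%). Weighting each of the 61 libraries with at least 10 *mt-TR* reads equally, the family share was 11.4% ± 9.79 (SD, n = 61). Intervals cover counting error only.

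The family was counted in 55 libraries. Another 16 libraries had *mt-TR* reads but none of the family. The largest of these, with 0 of 48 reads, allowed a share of up to 6.25%. The reads were concentrated: 27 libraries held 1 to 4 family reads, 28 held 5 or more, and the 10 libraries with at least 20 held 527 (68.3%). Among fragments of 15 to 29 nt, position 24 was the most counted first base in 21 of the 61 libraries with at least 10 reads, 2 of them tied. It was therefore a frequent 5′ end but not the leading one in most libraries.

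The 3′ ends ran from position 39 to 52 without a gap. The 15-nt fragment that the length limits would also allow was not counted. The study's methods give a minimum of 16 bases and discard reads with a second location in mm10. Whether these steps removed reads at the lower edge of the ladder was not tested. The 22-nt member (positions 24 to 45) was the most counted, with 169 reads in 32 libraries (21.9% of the family). Next came the 17-nt stem-loop (24 to 40) with 103 reads in 16 libraries, and the 21-nt member (24 to 44) with 101 reads in 20. The 20-nt member (24 to 43) had 80 reads in 23 libraries and the 19-nt member (24 to 42) had 72 in 15. The ends at 42 to 45 together held 422 reads, or 54.7% of the family (51.1% to 58.1%), and 53.5% without HC male replicate 3 (49.1% to 57.9%).

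Between these ends and on their 3′ side the ladder had rungs with few reads. The 16-nt member had 1 read, and the 18-nt member (24 to 41), which ends 1 base past the stem, had 18 reads in 6 libraries. The 23-nt member (24 to 46) had 49 reads in 14 libraries, after which the counts fell to 15 at position 47 and 18 at position 48. They were higher again at the following ends, with 32 reads at 49, 24 at 50, 43 at 51 and 47 at 52. The ladder thus had low counts at 41, 47 and 48, on either side of its main block of ends.

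Counted by tRNA arm, 104 reads ended in the anticodon stem (13.5%), 271 between the arms (35.1%), 283 in the T stem (36.7%) and 114 in the T loop (14.8%). Ends in the T loop were less frequent in HC male replicate 3 (4.30%, interval 2.48% to 7.37%) than in the other libraries pooled (20.7%, 17.3% to 24.5%). The reverse held for ends in the anticodon stem, at 20.4% in that library (16.1% to 25.5%) and 9.53% in the others (7.25% to 12.4%). One library thus set much of the apparent abundance of the 17-nt stem-loop.

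The 29-nt member differed from the others in its spread. It was present in 25 libraries, more than any member but the 22-nt one, although it had only 47 reads and never more than 4 in a library. The 28-nt member (24 to 51), by contrast, had 43 reads in 12 libraries, of which 12 came from HH female replicate 6 and 10 from CF male replicate 5. The 29-nt member was also next to the upper length limit. The 30-nt fragment just outside (24 to 53) had 48 reads in 20 libraries, so the limit cuts the ladder where counts were still level. In all, 6 longer fragments with the same first base held 96 reads, with 23 at 54 and 13 at 55.

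For the 22-nt member the library values were low outside HC male replicate 3. That library had 81 reads, and the next highest was CH male replicate 1 with 8. CC females had 1, 2.5 and 7 reads as lowest, median and highest, and were the only group in which all 6 libraries held this fragment. The medians of the other groups lay between 0 and 1, and the ranges of all groups but FF females, which had none, overlapped. By genotype the 22-nt member had 22 reads in 8 CC libraries, 18 in 7 CF, 13 in 5 CH, 4 in 1 FF, 101 in 8 HC (20 without HC male replicate 3) and 11 in 3 HH.

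The 17-nt stem-loop was less evenly spread. HC male replicate 3 had 57 of its 103 reads, CF female replicate 4 had 13 and CF male replicate 5 had 11. The medians of the groups were 0 to 1, and the lowest value was 0 in every group. By genotype it had 65 reads in 5 HC libraries (8 without HC male replicate 3), 27 in 5 CF, 6 in 3 CH, 4 in 2 HH, 1 in 1 CC and none in FF. In CC, with 94 family reads, the 22-nt member outnumbered the stem-loop, whereas the order was the reverse in CF with 112 family reads.

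The ladder differed from library to library. In the 28 libraries with at least 5 family reads, the number of distinct members ranged from 1 to 13 (median 5), and in 8 of them 1 member held 50% or more of the family. The 22-nt and the 19-nt member each led 5 libraries alone, the 21-nt member 4, and the 20-nt and 17-nt members 2 each. Ties added 3 libraries for the 22-nt member and 1 each for the 20-nt and 21-nt members. The 29-nt member led 1 library alone and shared the lead in 4. Averaged over the 28 libraries with equal weight, the 22-nt member held 16.5% of the family and the 19-nt and 21-nt members 13.7% each. The 20-nt member held 11.2%, the 29-nt member 9.11% and the stem-loop 7.92%. The 22-nt member therefore stayed first by this weighting, while the stem-loop moved from the second place to below the 29-nt member.

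Single libraries stood out by 1 rung. CF female replicate 1 had 12 family reads, 10 of them the 23-nt member. CC male replicate 5 had 17, of which 10 were the 19-nt member. In CH female replicate 6 all 5 family reads were the 19-nt member. In CF male replicate 5, with 24 family reads, 11 were the stem-loop and 10 the 28-nt member, at opposite ends of the ladder. HC male replicate 2 had 39 reads over 10 members with 10 at position 44, and HH male replicate 5 had 33 over 9 members with at most 7 at any end, so their ladders were broader. The study's methods describe removal of duplicate reads by molecular identifiers but do not name the libraries, so whether 10 reads in 1 rung were 10 molecules was not tested.

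Fragments with neighbouring first bases were fewer, and their reads were distributed differently over the 3′ ends. First base 23 had 275 reads of 15 to 29 nt in 38 libraries and first base 25 had 389 in 46. Over the ends 41 to 48, which the length limits allow for each of these first bases, end 45 held 32.4% of the reads that began at 24 (28.5% to 36.5%). It held 15.1% for first base 23 (10.5% to 21.2%) and 14.3% for first base 25 (10.4% to 19.6%). The most frequent end was 43 for first base 23 (26.2%), 44 for first base 25 (27.8%) and 48 for first base 27 (37.1%). First base 20 had 37.0% at end 45 and 27.8% at end 48, where first base 24 had 3.45%. Without HC male replicate 3, end 45 held 27.1% for first base 24, 8.93% for 23, 15.1% for 25 and 24.4% for 20, and the leading end of first base 20 was then 48 (39.7%). End 45 remained the leading end of first base 24 without that library. These are pooled reads that share libraries, so the differences are descriptions.

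Whether the family's share of *mt-TR* reads followed genotype or sex was examined over libraries. The family reads of CC females were 1, 11.5 and 20 (lowest, median and highest) and those of CC males 0, 3.5 and 17. CF females had 4, 7 and 35 and CF males 1, 4 and 24. CH females had 0, 4 and 12 and CH males 0, 2.5 and 22. The ranges overlapped or met throughout, and CC females, CF females, CF males and HC females were the groups with family reads in every library. HC females had 1, 8 and 26 family reads and HC males 0, 7.5 and 279. HH females had 0, 2.5 and 28, and HH males 0, 1 and 33. FF females and FF males each had a median of 0 and a highest value of 4, with 4 libraries of 6 at 0 in both sexes.

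As a share of pooled *mt-TR* reads, the family held 14.4% in CC, 16.4% in CF, 7.17% in CH, 5.65% in FF, 16.7% in HC and 11.0% in HH. Without HC male replicate 3 the HC share was 10.9% (124 of 1140 reads), close to that of HH. FF libraries had only 177 *mt-TR* reads in all, and the interval of their share ran from 3.10% to 10.1%. Shares are relative to other *mt-TR* reads of bulk lung, so fewer cells with the fragment and less of it per cell cannot be told apart.

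By mtDNA type, the mean library share was 13.5% ± 8.97 (SD, n = 21) for C, 11.6% ± 11.5 (n = 20) for F and 9.04% ± 8.66 (n = 20) for H. The spread of the 3 means, 4.45 percentage points, was not larger than chance arrangements of the labels often gave (permutation test, two-sided, with sex and batch held fixed, p = 0.309, adjusted p = 0.522 over 6 tests). Within batch 2 the means were 15.1% (n = 16), 11.3% (n = 14) and 7.43% (n = 9). In batch 1 they were 9.65% for C and 4.72% for H with 3 libraries each (exact permutation p = 0.30), where nuclear genome and mtDNA cannot be told apart. In batch 3 the order was different, with 6.37% for C (n = 2), 12.4% for F (n = 6) and 12.5% for H (n = 8). Each mean over all batches joined 2 nuclear genomes. For C these were CC (16.2%, n = 10) and HC (11.0%, n = 11). For F they were CF (15.1%, n = 12) and FF (6.39%, n = 8), and for H, CH (7.97%, n = 12) and HH (10.6%, n = 8). With nuclear genome also held fixed, the permutation test gave p = 0.346.

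By nuclear genome, the mean share was 12.9% ± 10.3 (n = 34) for C, 6.39% ± 10.0 (n = 8) for F and 10.9% ± 8.29 (n = 19) for H (permutation test, p = 0.185, adjusted p = 0.522). The F mean rests on 8 FF libraries, in which F mtDNA was always present as well. The means of C, F and H were 14.3% (n = 22), 3.96% (n = 5) and 11.0% (n = 12) within batch 2 and 12.3% (n = 9), 10.4% (n = 3) and 11.3% (n = 4) within batch 3. FF female replicate 6, with 4 of 14 reads (28.6%), raised the F mean. Without it the F mean was 3.22% ± 4.85 (n = 7) and the spread of the 3 means 9.70 points (permutation test, p = 0.0325 before adjustment), and the other batch 3 FF libraries were at 0% and 2.70%. With all libraries of at least 1 read the F mean was 4.64% (n = 11) and the spread 8.11 points (permutation test, p = 0.0396 before adjustment). The FF libraries that entered had 2, 6 and 8 *mt-TR* reads and none of the family. Their shares of 0% carry little information, since 0 of 8 reads allows a share of up to 37.5%. Females and males had 11.7% ± 9.82 (n = 33) and 11.0% ± 9.93 (n = 28), a difference of −0.69 percentage points (permutation test, p = 0.772, adjusted p = 0.772).

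The same questions were put to the position of the 3′ end. The mean 3′ end of the family was 44.9 in the pooled reads (45.4 without HC male replicate 3) and ranged from 41.7 to 49.3 among the 28 libraries with at least 5 family reads (median 45.1, SD 1.84). By mtDNA type it was 45.2 ± 1.85 (n = 14) for C, 45.5 ± 1.27 (n = 7) for F and 44.8 ± 2.44 (n = 7) for H (exact permutation test, p = 0.738, adjusted p = 0.772). Within batch 2 these means were 44.7, 45.5 and 45.3. By nuclear genome it was 44.9 ± 1.51 (n = 17) for C and 45.6 ± 2.28 (n = 11) for H (exact permutation test, p = 0.348, adjusted p = 0.522), and 44.9 and 45.1 within batch 2. No FF library reached 5 family reads. At these minimums the means of the mtDNA types and of the nuclear genomes differed by less than the SD between libraries. The order was not stable: with at least 10 family reads H mtDNA had the highest mean (n = 5) and the spread was 1.39 positions (exact permutation test, p = 0.306). With at least 3 family reads 2 FF libraries entered with a mean of 48.5, and the spread between nuclear genomes was 3.06 positions (permutation test, p = 0.243).

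Between the sexes the mean 3′ end was 45.8 ± 1.88 (n = 17) in females and 44.2 ± 1.36 (n = 11) in males, a male minus female difference of −1.56 positions (exact permutation test within genotype and batch, p = 0.0283). The difference did not pass after adjustment over the 6 tests (adjusted p = 0.170), and the ranges overlapped. The 22-nt member had 47 reads in 18 female and 122 in 14 male libraries (41 without HC male replicate 3), and the 29-nt member had 31 reads in 16 female and 16 in 9 male libraries. Batch moved with this contrast. Batch 1 held females only, and reads that ended in the T loop made up 34.3% of the family in batch 1, 9.42% in batch 2 (14.1% without HC male replicate 3) and 29.8% in batch 3. Within batch 2 the difference was −1.01 positions (permutation test, p = 0.0929) and within batch 3 it was −1.45 (exact permutation test with 3 libraries of each sex, p = 0.50). In batch 2 no genotype had females and males in the same library set, as named by the prefix of the library name. Sex and library set therefore cannot be told apart there. The set with males only had a mean 3′ end of 44.2 (n = 4, range 43.1 to 46.8). The set with females only had 45.4 (n = 9, range 43.1 to 47), and the batch 2 set with both sexes 44.9 (n = 5). Leaving out 1 library at a time kept p under 0.05 in 27 of 28 cases, and the exception was HH female replicate 6, without which the difference was −1.41 (exact permutation test, p = 0.0850). Libraries without the other sex in their genotype and batch, such as HC female replicates 1 to 3, cannot be relabelled in this test. Leaving out any of those 3 gave the same p of 0.0283 (exact permutation test), so such cases say nothing about stability. Since such libraries kept their label in every arrangement, the arrangements were not centred on a difference of 0. No arrangement gave an equally large difference in the other direction, so this p counts 1 direction only. With at least 10 family reads the sex difference was −1.42 (exact permutation test, p = 0.0250), and with at least 3 it was −0.55 (permutation test, p = 0.512).

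The family was also compared between genotypes with the same nuclear genome or sex with edgeR's quasi-likelihood test, over 75 families of fragments defined by first base and length class. In CH against CC the log2 fold change of its reads was −1.53 (SE 1.01, unadjusted p = 0.130, Benjamini-Hochberg adjusted p = 0.513 by edgeR). In CF against CC it was −0.16 (SE 0.843) and in HC against HH 0.97 (SE 1.01), both with adjusted p = 1 by edgeR. In males against females it was 0.17 (SE 0.529, adjusted p = 1 by edgeR). The family did not pass in any of these comparisons. In CH against CC the females shared no batch, since CC females were all in batch 2 and CH females in batches 1 and 3. For the females, genotype and batch are thus separated only through the other groups of the fit. Of all 75 families, 0% were called in each of the 3 genotype comparisons, with 11, 7 and 5 families at an unadjusted p under 0.05 in CH against CC, CF against CC and HC against HH, and DESeq2 called none there. With library set in place of batch, edgeR called 3 of 75 families in CH against CC, and this family was not among them (adjusted p = 0.707). In the sex comparison 1.33% of families were called. There 0 were called by DESeq2, and 0 by edgeR without HC male replicate 3 or in batch 2 alone. Leaving out HC male replicate 3 moved the HC against HH value to 0.31, and the 3 libraries without reads were not in the fit. TMM scaling factors ran from 0.191 to 72.6 in these sparse counts. Each SE given is the absolute log2 fold change divided by the square root of the test's F statistic. It is approximate and not a fitted standard error.

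Tested as single fragments, 0 of 14 members passed in each of the 4 comparisons (edgeR, adjusted p under 0.05), where 0% of all 499 fragments passed. At an unadjusted p under 0.05 there were 3 members in CH against CC, 3 in CF against CC, 0 in HC against HH and 1 in males against females, beside 32, 21, 21 and 2 of all fragments. DESeq2 called no member and gave 1 at an unadjusted p under 0.05, in CF against CC. Without HC male replicate 3, edgeR called 1 of 474 fragments in HC against HH, and it was not a member. The median log2 fold change of the 14 members was −0.73 in CH against CC (−0.17 over all fragments), 0.12 in CF against CC (0.03), 0.47 in HC against HH (0.23) and 0.18 in males against females (0.07). The members' own values went in both directions. In CF against CC the 17-nt stem-loop had a log2 fold change of 3.58 and the 19-nt member −3.27 (unadjusted p = 0.00217 and 0.00299, both with adjusted p = 0.373 by edgeR). The stem-loop had 27 reads in 5 CF libraries and 1 read in 1 CC library. Of the 27, 13 came from CF female replicate 4 and 11 from CF male replicate 5. The 19-nt member had 18 reads in 4 CC libraries and 1 read in 1 CF library, and 10 of the 18 came from CC male replicate 5. In CH against CC the 20-nt member had −3.28 (adjusted p = 0.311 by edgeR), with 12 reads in 4 CC libraries and none in CH. Of the 12 reads, 11 came from CC females, which shared no batch with CH females.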

How the data were processed

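Small RNA libraries of mouse lung were made with a single adapter and circularization, and the authors deposited raw read counts of 500 *mt-TR* fragments in 74 libraries. Per the submitters' processing notes, FastQC 0.12.1, UMI-tools 1.1.6, cutadapt 5.0, Bowtie 1.3.1 and BWA 0.7.18 were used with mm10. The study's methods give identifier extraction, trimming with a minimum of 16 bases, mapping without mismatches to each strain's *mt-TR*, deduplication, and a further mapping to mm10 that discarded reads with a second location. They do not name the libraries, and the deposited table also holds 15-nt fragments. The counts cover *mt-TR* only, so whole-library depth is unknown.

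Groups came from the labels. Fragments were located by exact match on mature *mt-TR* built from the annotated GRCm38 gene. The members and lists were chosen with earlier results of these data known. Every member is described, sequences are printed for the 5 with the most reads and the longest, and library values are given for the 2 most counted. Shares used libraries with at least 10 *mt-TR* reads and mean 3′ ends those with at least 5 family reads. Group means were compared by permutation tests of the absolute difference or spread, exact or with 100000 resamples. Labels were permuted within sex and batch (for sex, within genotype and batch), with Benjamini-Hochberg adjustment over 6 tests. Libraries alone in their stratum could not be relabelled. Batches are the 3 named in the labels. Counts were fitted with edgeR 4.0.16 (R 4.3.3; TMM, batch as covariate, 12 groups, 71 libraries with reads). The planned filter on low counts kept 1 of 75 families, so the fits were made without it. Alternatives used DESeq2 1.42.0, other minimums, library sets, batches and left-out libraries. Tables were made in Python 3.11.15. Scripts were tested on simulated data. Intervals are 95% Wilson intervals, and a count of 0 allows up to 3 counts. Both cover counting error only. Matches elsewhere in the genome were not searched again.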

Additional observations from a re-analysis of the deposited data

Results flagged for a closer look

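Within groups of at least 4 libraries, 10 values stood apart from the others of their group by Dixon's criterion, out of 26 combinations of group and measure. For normally distributed values chance would give about 1.3. Family reads are small, skewed counts not scaled to depth, so that number is no fair measure for them. The flagged 12 reads of CH female replicate 2, for example, were 8.05% of its 149 *mt-TR* reads. For family reads, the highest library was 17 reads in CC male replicate 5 (next 6), 35 in CF female replicate 4 (next 12), 24 in CF male replicate 5 (next 5) and 12 in CH female replicate 2 (next 5). It was 22 in CH male replicate 1 (next 4), 4 in FF female replicate 6 (next 1), 4 in FF male replicate 1 (next 1), 279 in HC male replicate 3 (next 39) and 33 in HH male replicate 5 (next 6). For the family share, CH female replicate 6 had 29.4% of 17 *mt-TR* reads, and the next CH female had 8.70%. All 10 were the highest value of their group. The 4 family reads of FF female replicate 6 were all the 29-nt member, those of FF male replicate 1 all the 22-nt member, and the 5 of CH female replicate 6 all the 19-nt member.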

How the results depend on the processing

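For mtDNA and nuclear genome the tested value is a spread of means and has no direction. The levels with the highest and lowest mean were those reported in 20 of 28 alternatives and others in 8. Values that changed sign or side of the threshold follow, and the cause was not tested. The share spread between nuclear genomes was 8.11 points (permutation p = 0.0396) with all libraries of at least 1 read, and 5.61 to 9.70 leaving out a library (permutation p = 0.0325 without FF female replicate 6, the only such p under 0.05). The sex difference in share was 0.67 points with at least 20 reads, and −1.67 to 0.16 leaving out a library. The sex difference in mean 3′ end was −0.55 with at least 3 family reads, −0.56 counting each member once per library, −1.01 in batch 2, −1.45 in batch 3, and −1.82 to −1.30 leaving out a library. The log2 fold change of the family in CF against CC was 0.24 by DESeq2, 0.22 without HC male replicate 3 and −0.51 to 0.23 leaving out a library. In males against females it was −0.44 with families of at least 20 reads, −0.26 scaled by library size alone, −0.22 with library set in place of batch, and −0.29 to 0.48 leaving out a library. HC against HH gave 2.17 in batch 2 alone and 0.24 scaled by library size alone. CH against CC ranged from −2.95 to −1.15 leaving out a library, with a lowest adjusted p of 0.0661 by edgeR. With the replicate number as a replicate block the values were 0.42 in CF against CC, −0.12 in males against females, −1.48 in CH against CC and 1.16 in HC against HH. Whether the numbers pair the samples could not be settled in these sparse counts. Deviations of same-numbered libraries correlated at −0.06 in CF against CC and −0.11 in CH against CC on average. The averages were 0.00340 in HC against HH and 0.11 between the sexes. Single pairs ran from −0.73 to 0.44 in HC against HH and from −0.45 to 0.61 between the sexes. CH against CC gave −0.80 in the males of batch 2, which held no CH females. That fit, batches 1 and 3 alone, leaving out each library, families of at least 20 reads, and running the alternative edgeR and DESeq2 fits without a filter were chosen after seeing the data. The filtered fits gave no value. Of 55 libraries with family reads, 27 held 1 to 4.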
